A study of Rattus norvegicus with 4 samples.

Results

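The genes of the proteasome, of ubiquitin and of the cathepsins and peptidases were followed in mesenteric white adipose tissue of rats given oleoyl-estrone (OE), the oleic acid ester of estrone. They were chosen by name: a gene entered when its name on the array held proteasome, ubiquitin, cathepsin, peptidase or calpain. This gave 39 of the 1185 genes on the array, of which 15 names held proteasome, 2 ubiquitin, 8 cathepsin and 19 peptidase, with some names holding more than 1 of these words. The name calpain was held by 0 genes, so that the cytosolic calcium-activated proteases are absent from the list, and the lysosomal share of it rests on the cathepsins.

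All 4 animals were female Wistar rats of 220 to 230 g at the start, with chow and water freely available and no group matched for intake. The OE rats received 10 μmol/kg per day of OE in 0.2 ml of sunflower oil by gavage for 2 days, and the control rats received the same volume of oil alone. Tissue was taken at 48 h, and RNA of 2 control and 2 OE rats was hybridized as radiolabelled cDNA, 1 rat per nylon array. The arrays are named control 1, control 2, OE 1 and OE 2, and whole tissue was used, so that a lower value can mean fewer cells of a type or less RNA per cell, which cannot be told apart here.

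Cells degrade most short-lived and damaged cytosolic proteins by tagging them with chains of ubiquitin and feeding them to the proteasome, a barrel of alpha and beta subunit rings that is opened by regulatory caps. Proteins taken up from outside, membrane proteins and material delivered by autophagy are instead broken down in the lysosome, where the cathepsins are the main proteases. Peptides are finished off by amino-, carboxy- and dipeptidases in the cytosol or on the cell surface. In adipose tissue, the cathepsins K, L and S are also known from matrix turnover and from macrophages, and the insulin-regulated aminopeptidase travels to the adipocyte surface in the vesicles of the insulin-sensitive glucose transporter.

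Each adjusted intensity (spot minus background, in arbitrary units) was divided by the median of its array, a median of 14 and 9 for the controls and of 22 and 17 for OE. Intensities of a gene are listed in the same order, the controls 1 and 2 before OE 1 and 2. The ratio given for a gene is the mean OE level divided by the mean control level on this scale. A ratio under 0.5 or over 1.5 was counted, as in the methods of the study. Detection required an adjusted intensity of 2 times the background or more, that is 120, 108, 122 and 122. All 39 genes passed the filter on low values.

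A ratio under 0.5 was found for 6 of the 39 genes, beside 18.3% of all genes tested, and a ratio over 1.5 for 9, beside 18.9%. The median ratio was 0.869 (−0.20 on the log2 scale), beside 0.895 (−0.16) over all genes tested. The ratio was below 1 for 23 of the 39 genes and above 1 for 16, beside 530 and 392 of all 922 genes tested. With geometric means of the arrays, 19 of the 39 were below 1 and 20 above. The median was then 0.01 on the log2 scale, beside −0.04 over all genes tested. For 4 genes both OE values were lower than either control value, beside 15.8% of all genes tested. For another 4 both were higher, beside 14.1%, and the groups overlapped for the other 31.

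By role, the 14 proteasome core genes had a median ratio of 1.11 with 0 under 0.5 and 5 over 1.5, and the 8 cathepsins had a median ratio of 0.497 with 4 under 0.5 and 1 over 1.5. The 14 other peptidases lay between, with a median of 0.863, 2 under 0.5 and 3 over 1.5. Over all genes tested the shares were 18.3% and 18.9%. The 5 core genes over 1.5 were detected on no array. Of the 4 cathepsins under 0.5, D, K and H were detected on control 2 alone. The median of the cathepsins was below 1 under every scaling of the arrays tried. With no scaling between arrays it was close to 1, at −0.06 on the log2 scale, with 4 of the 8 below 1 and 4 above. The median of the proteasome core was above 1 except when the arrays were scaled to the housekeeping genes (−0.56 on the log2 scale). Neither direction held without 1 of the control arrays. The cathepsin median was 0.57 on the log2 scale without control 2, and the proteasome core median was −0.05 without control 1. No test of one role against another was made.

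Limma called 0 of the 39 genes different between OE and control rats, with Benjamini-Hochberg adjusted p-values of 0.957 to 0.998. At an unadjusted p under 0.05 limma also called 0 of them, against 2.06% of all 922 genes tested, and with the adjustment 0 of the 922 were called (0.0%). Limma compares means of log2 values, so its log2 difference can differ from the ratio in size and direction. The standard errors of the log2 differences were 0.57 to 1.87 over the 39 genes, and 0.333 is the smallest two-sided p that an exact permutation test allows with 2 arrays per group.

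The signals were low. At least 1 array detected 22 of the 39 genes (56.4%, beside 24.1% of all genes on the array), no array detected the other 17, and all 4 arrays detected only polyubiquitin, the proteasome activator PA28 alpha, cathepsin L and the membrane aminopeptidase vp165. All 4 of these had ratios under 1, from 0.402 to 0.801. Of the 9 genes with a ratio over 1.5, 8 were detected on no array, and of the 6 with a ratio under 0.5, 5 were detected on at least 1. Among the latter, cathepsins D, K and H and carboxypeptidase E were detected on control 2 alone. The same high control value thus gave both their detection and their ratio under 0.5. The median ratio was 0.764 over the 22 detected genes and 1.30 over the 17 others. This split is not independent of the ratio, and it was not made over all genes tested.

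**Figure D1:**
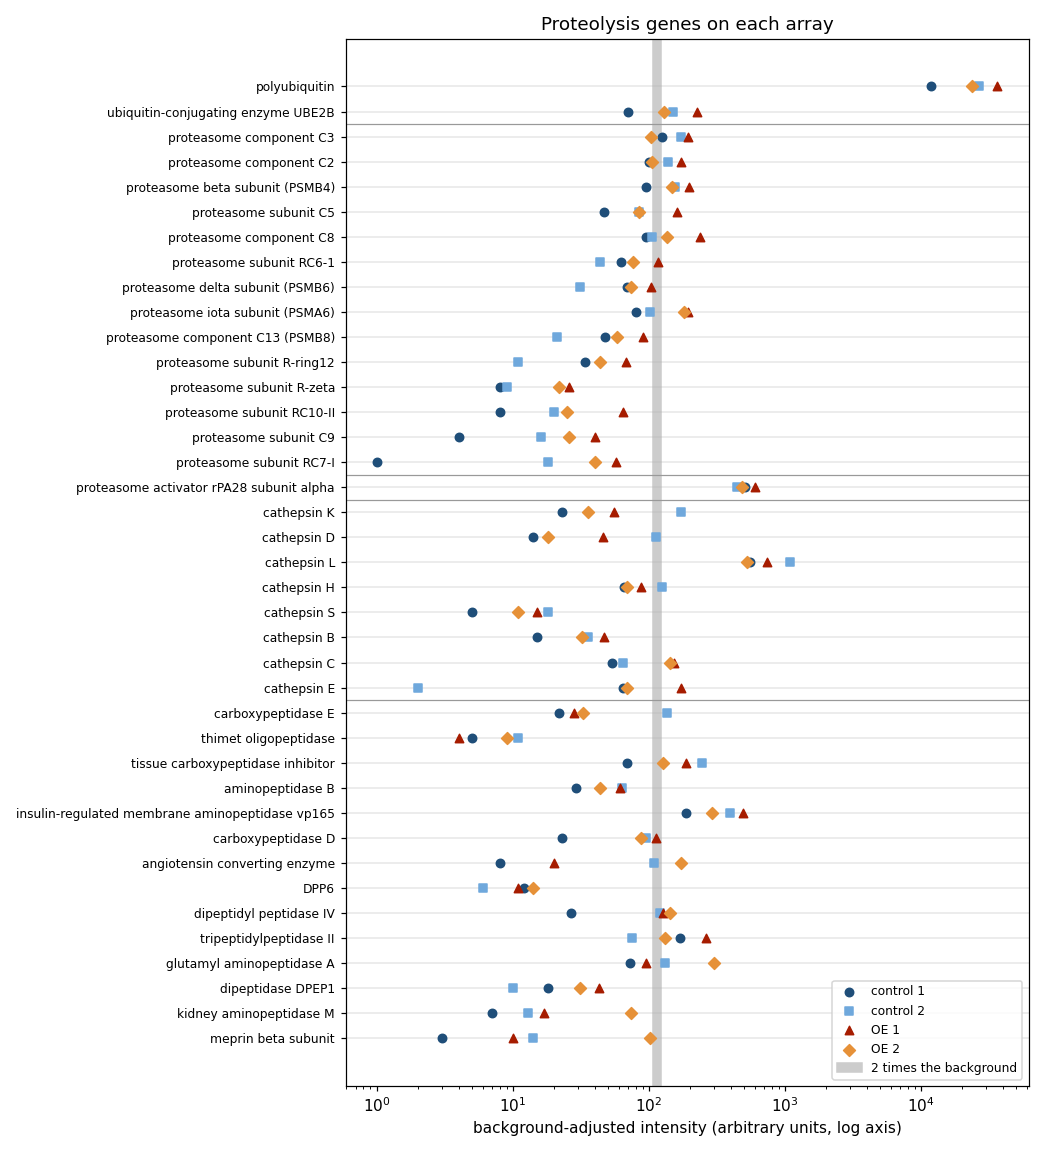
Background-adjusted intensity (arbitrary units, log axis) of the 39 proteolysis genes on each of the 4 arrays, 1 rat per array, ordered by role and by ratio. The grey band marks 2 times the background (108 to 122), and the points of 17 genes lie below that limit on all 4 arrays.

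The control rats differed from each other more than the OE rats did. The scaled levels of the controls differed by more than 2-fold for 27 of the 39 genes (69.2%, beside 57.6% of all genes tested) and those of the OE arrays for 6 (15.4%, beside 22.5%). Control 2 was above control 1 for 32 of the 39 genes, beside 537 of all 922 genes tested. It was the highest of the 4 arrays for 23 of the 39, beside 418 of the 922. Marker genes of cell types also differed between the arrays. The summed levels of 7 adipocyte markers were 271, 2274, 430 and 525 array medians on control 1, control 2, OE 1 and OE 2, with leptin at 0 on control 2. The adipocyte fatty acid-binding protein FABP4 made up 93.0% to 95.4% of that sum, and the other 6 markers came to 18.3, 159, 29.1 and 24.1. Those of 7 leukocyte markers were 224, 27.8, 238 and 125, with the CD3 zeta subunit and CD8 at 0 on control 2, where 0 of the 7 were detected, and the leukocyte common antigen made up 28.4% to 64.9% of the sum. Those of 6 mast cell markers were 7.36, 56.1, 14.2 and 11.2. Those of 5 intestine markers were 1.93, 1.44, 3.14 and 273, of which 4 were detected, on OE 2 alone. None of 6 markers of the exocrine pancreas was detected on any array. The part of these differences in the results was not tested.

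Polyubiquitin, the precursor from which free ubiquitin is cut, had adjusted intensities of 11782, 26590, 36451 and 23495. It was detected on all 4 arrays, and it belongs to the housekeeping spots of the array. After scaling, both OE values lay between the 2 control values, with a ratio of 0.801 (limma log2 difference −0.06, SE 0.81, adjusted p = 0.989). The ratio was 1.81 against control 1 alone and 0.514 against control 2 alone.

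UBE2B, the ubiquitin-conjugating enzyme that is the mammalian counterpart of yeast RAD6, had adjusted intensities of 70, 150, 226 and 129 and a ratio of 0.824. It was detected on every array except control 1. As with polyubiquitin, both OE values lay between those of the controls after scaling. The ratio was above 1 for both genes with no scaling between arrays and when scaled to the genes detected on all 4 arrays. It was also above 1 for both with no background subtraction, with normexp background correction and without control 2. With quantile normalization it was 1.10 for UBE2B and 0.916 for polyubiquitin. Under the other alternatives it was below 1 for both.

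The alpha subunits of the proteasome form the outer rings, which gate the entry to the barrel. Proteasome component C3 (Psma2) had adjusted intensities of 125, 172, 193 and 103, which were 8.93, 19.1, 8.77 and 6.06 array medians. It had the lowest ratio of the core, 0.529, and both OE values lay below both controls. The gap between the lower control and the higher OE value was small beside the gap between the 2 controls, and the limma log2 difference was −0.84 (SE 0.69, adjusted p = 0.957).

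Proteasome component C2 (Psma1) had adjusted intensities of 100, 139, 171 and 105, with a ratio of 0.618. For this subunit OE 1 lay above control 1 and the groups overlapped.

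Proteasome component C8 (Psma3) had adjusted intensities of 96, 105, 237 and 136 and a ratio of 1.01. The iota subunit (Psma6) had 81, 102, 193 and 182 and a ratio of 1.14. Both spots were detected on the OE arrays and on neither control array, but after scaling control 2 was the highest of the 4 arrays for both, at 11.7 array medians for C8 and 11.3 for iota. The iota ratio was 1.68 against control 1 alone and 0.859 against control 2 alone.

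The other alpha subunits were below the detection limit on every array. Subunit RC6-1 (Psma7), at 62, 44, 116 and 76, had a ratio of 1.05 and varied least of the 39 genes over the 4 arrays, from 4.43 to 5.27 array medians. Subunit R-zeta (Psma5), at 8, 9, 26 and 22, had a ratio of 1.58, and both OE values lay above both controls. Subunit C9 (Psma4), at 4, 16, 40 and 26, had a ratio of 1.62, which was 5.86 against control 1 alone and 0.942 against control 2 alone.

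The beta subunits form the inner rings, and PSMB6 was the only constitutive catalytic one on the list, cutting after acidic residues. The non-catalytic subunit PSMB4 had adjusted intensities of 96, 156, 197 and 147 and a ratio of 0.728, and subunit C5 (Psmb1), also non-catalytic, had 47, 84, 162 and 85 and a ratio of 0.974. In both, the groups overlapped. PSMB6 was not detected on any array, at 69, 31, 103 and 74, with a ratio of 1.08.

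Subunit RC7-I (Psmb2), likewise non-catalytic, had the highest ratio of the proteasome core, 2.21, and the smallest limma p-value of all 39 genes (0.163, adjusted p = 0.957, log2 difference 1.85, SE 1.13). Its adjusted intensities were 1, 18, 57 and 40, all below detection. Both OE values lay above both controls, but control 1 fell under the floor of 0.235 array medians and was raised to it, and against control 2 alone the ratio was 1.24. Subunit RC10-II (Psmb3), at 8, 20, 65 and 25, had a ratio of 1.58, which was 3.87 against control 1 alone and 0.996 against control 2 alone.

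Cells exposed to interferon replace catalytic beta subunits by those of the immunoproteasome, and 2 of these were on the array. C13 (PSMB8) had adjusted intensities of 48, 21, 90 and 58 and a ratio of 1.30. R-ring12 (Psmb9), which takes the place of PSMB6, had 34, 11, 68 and 44 and a ratio of 1.56, with both OE values above both controls. Neither was detected on any array, and both were lowest on control 2, the array on which the leukocyte sum and 6 of its 7 markers were also lowest. The constitutive PSMB6 was lowest there too, whereas PA28 alpha was highest there, at 49.0 array medians. The share of all genes tested that were lowest on control 2 was not counted. Scaled to the housekeeping genes, the R-ring12 ratio was 0.861.

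PA28 alpha (Psme1), a subunit of the cap that opens the proteasome without ATP, was bright on all 4 arrays, at adjusted intensities of 508, 441, 601 and 481. After scaling both OE values, at 27.3 and 28.3 array medians, lay below both controls, at 36.3 and 49.0. The ratio was 0.652 (control 42.6 ± 8.99 and OE 27.8 ± 0.690 array medians, SD, n = 2; limma log2 difference −0.60, SE 0.58, adjusted p = 0.957). It was 0.766 against control 1 alone and 0.567 against control 2 alone. With no scaling between arrays the direction turned, to 0.19 on the log2 scale.

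The 26S cap, which unfolds ubiquitin-tagged proteins, was represented by 4 ATPase spots whose names lack the word proteasome and which are therefore outside the 39 genes. The spot for PSMC2 (its name allows PSMC4 as well) had adjusted intensities of 95, 44, 66 and 42 and a ratio of 0.469, with both OE values below both controls. This spot was picked out by the study on these same samples. PSMC5, at 19, 14, 14 and 15, had a ratio of 0.521, and its OE values too lay below both controls. PSMC1, at 75, 143, 172 and 107, had a ratio of 0.664, and the second PSMC4 or PSMC2 spot, at 14, 21, 25 and 17, had 0.641. All 4 ratios were below 1, whereas with no scaling between arrays 2 of the 4 were, and with no background subtraction 3. Without control 2 only 2 of the 4 were below 1, since PSMC1 was 1.32 and the second PSMC4 or PSMC2 spot 1.07 against control 1 alone. With the series table, 3 spots passed the filter and 2 of them were below 1.

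Cathepsin L was detected on all 4 arrays, with adjusted intensities of 551, 1091, 743 and 522. This cysteine protease is among the most active lysosomal endopeptidases. Its scaled levels were 39.4, 121, 33.8 and 30.7 array medians, so that both OE values lay below both controls, and the ratio was 0.402 (control 80.3 ± 57.9 and OE 32.2 ± 2.17, SD, n = 2; limma log2 difference −1.10, SE 0.77, adjusted p = 0.957). Against control 1 alone it was 0.819, and against control 2 alone 0.266.

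Cathepsin H, an aminopeptidase of the lysosome, was likewise highest on control 2, with control 1 next, at a lower signal. Its adjusted intensities were 66, 125, 87 and 69, and only control 2 was detected. The ratio was 0.431, with both OE values below both controls, and 0.850 against control 1 alone.

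Cathepsin D, the aspartic protease of the lysosome, had adjusted intensities of 14, 112, 46 and 18 and a ratio of 0.234. Cathepsin K, a collagen-degrading cysteine protease, had 23, 172, 55 and 36 and a ratio of 0.222. In both, control 2 was the only array detected, and the other control lay below both OE arrays after scaling. Against control 1 alone the ratios were 1.57 for cathepsin D and 1.41 for cathepsin K, and against control 2 alone they were 0.127 and 0.121.

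Cathepsin C, the dipeptidyl peptidase that activates proteases of leukocyte granules, went the other way, at 54, 65, 154 and 142. Both OE arrays detected it and neither control did. After scaling its ratio was 1.39 (control 5.54 ± 2.38 and OE 7.68 ± 0.957 array medians, SD, n = 2), and OE 1 lay below control 2.

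Cathepsin E, an aspartic protease of the endosomes of immune and epithelial cells, had adjusted intensities of 65, 2, 171 and 69. It was detected on OE 1 alone and had the highest cathepsin ratio, 2.43. Control 2 lay under the floor, and against control 1 alone the ratio was 1.27. Cathepsins S and B were detected on no array, with adjusted intensities of 5 to 18 and 15 to 47 and ratios of 0.564 and 0.792.

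**Figure D2:**
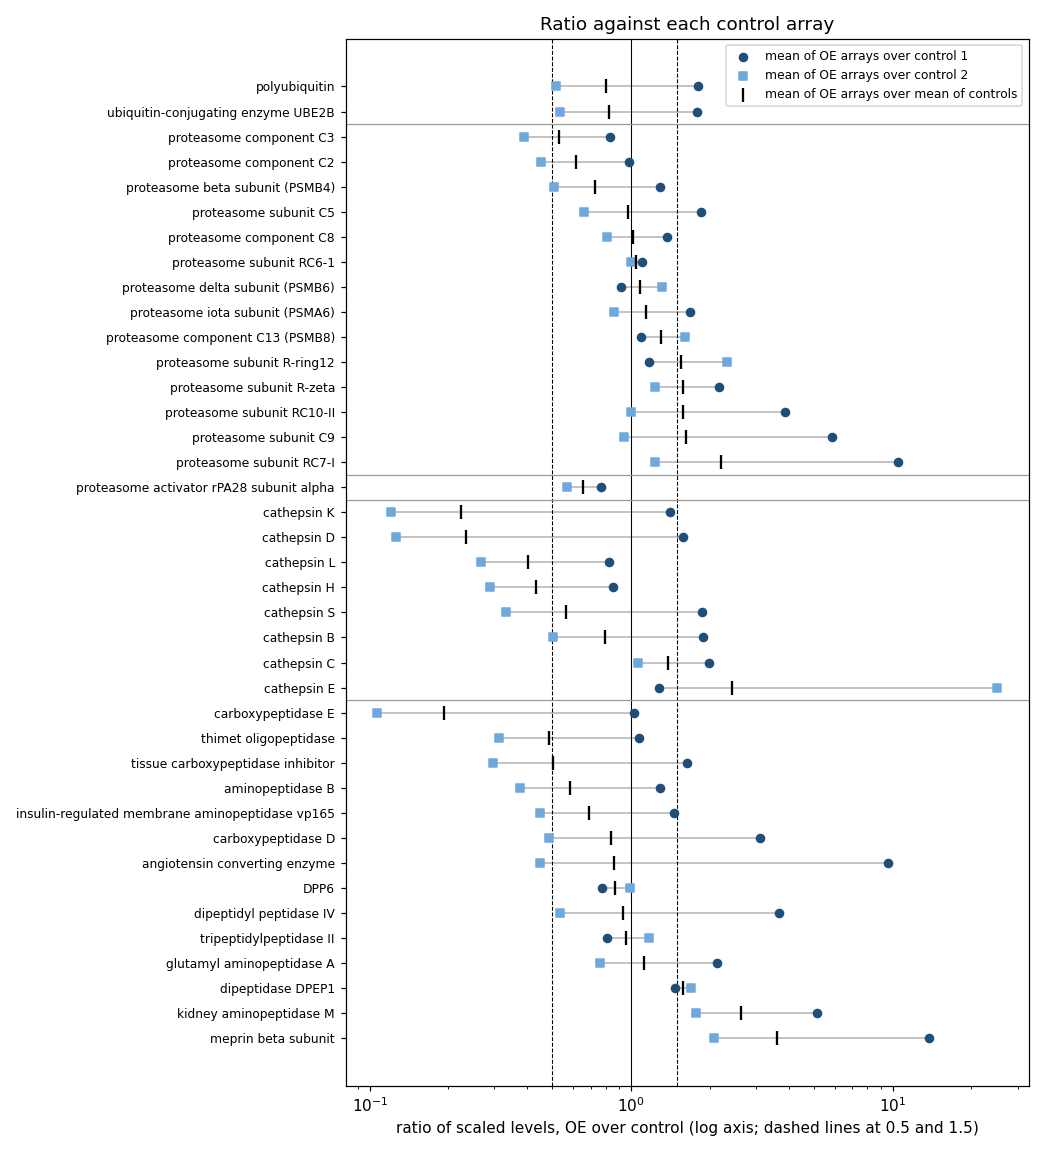
Ratio of the mean of the 2 OE arrays to control 1 alone (circles), to control 2 alone (squares) and to the mean of the controls (vertical ticks), log axis, for the 39 proteolysis genes, with dashed lines at 0.5 and 1.5. The circles lie above 1 for 31 genes (median 1.47), beside 540 of all 922 genes tested (median 1.11). The squares lie above 1 for 11 genes (median 0.567), beside 390 of the 922 (median 0.822).

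The membrane aminopeptidase vp165 (Lnpep), which cleaves vasopressin and oxytocin and marks the insulin-responsive vesicles of adipocytes, had adjusted intensities of 188, 392, 488 and 289. It was detected on all 4 arrays, and both OE values lay between the controls after scaling (ratio 0.688). The ratio was 1.46 against control 1 alone and 0.450 against control 2 alone.

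Carboxypeptidase E, a processing enzyme of peptide hormones, had the lowest ratio of all 39 genes, 0.193. Its adjusted intensities were 22, 136, 28 and 33, and only control 2 was detected. Without that array the ratio was 1.02, and the limma log2 difference over all arrays was −1.63 (SE 1.19, adjusted p = 0.957). The tissue carboxypeptidase inhibitor, whose name brought it into the list although it is no protease, had 69, 245, 189 and 128 and a ratio of 0.501.

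The cytosolic peptidases trim the products of the proteasome. TPP II, a very large protease that removes tripeptides, had adjusted intensities of 170, 75, 261 and 131 and a ratio of 0.956. It was below detection on control 2 alone. Thimet oligopeptidase, which degrades short peptides, had 5, 11, 4 and 9, close to the background, and a ratio of 0.484. Apart from these cytosolic enzymes, aminopeptidase B, at 29 to 64, had a ratio of 0.584. Carboxypeptidase D, at 23 to 112, had a ratio of 0.837, but a limma log2 difference of 0.29 (SE 1.02). Neither aminopeptidase B nor carboxypeptidase D was detected on any array.

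A further 6 enzymes sit on the surface of brush borders, of endothelium or of other cells. Dipeptidyl peptidase IV, which inactivates incretins, had 27, 120, 128 and 143 and a ratio of 0.932, but a limma log2 difference of 0.46 (SE 1.06). Angiotensin converting enzyme had 8, 110, 20 and 171, so that 1 array of each group was high. Its ratio was 0.857, but its limma log2 difference was 0.19 (SE 1.87). Glutamyl aminopeptidase A, which cleaves angiotensin II, had 73, 131, 95 and 303 and a ratio of 1.12.

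Meprin beta and kidney aminopeptidase M, both brush-border enzymes, had the highest ratios of the list. Meprin beta had adjusted intensities of 3, 14, 10 and 102 and a ratio of 3.60, and aminopeptidase M had 7, 13, 17 and 74 and a ratio of 2.64. In both, OE 2 alone set the ratio: without it, the values were 0.497 and 0.795. The dipeptidase DPEP1, at 18, 10, 43 and 31, had a ratio of 1.58 with both OE values above both controls, and DPP6, a relative of the dipeptidyl peptidases that lacks their activity, at 6 to 14, had 0.869. None of these last 4 was detected on any array.

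Some of these genes had their highest or lowest array in common with a marker sum, but most did not keep its order over the other arrays. The sets were chosen after their values were seen. Over all 922 genes tested, control 2 was the highest array for 418 and OE 2 for 137. Cathepsins D, K, H and L and carboxypeptidase E were highest on control 2, where the adipocyte sum, nearly all of it FABP4, was also highest, and on the other arrays they reached 8.04% to 33.9% of that level while the sum reached 11.9% to 23.1%. Over those 3 arrays the orders differed: the sum was lowest on control 1, whereas cathepsins H and L were lower on both OE arrays than on control 1. PSMB6, R-ring12, PSMB8 and cathepsin E were lowest on control 2, at 69.9%, 39.5%, 57.0% and 2.86% of their highest array, where the leukocyte sum stood at 11.7% of its highest. On OE 2 that sum stood at 52.5%, cathepsin E at 52.2% and the 3 proteasome subunits at 83.4% to 88.3%. Control 2 was the lowest array for 5 of the 39 genes, DPEP1 being the other. In contrast, PA28 alpha and cathepsin S were highest on control 2, at 49.0 and 2.00 array medians. Cathepsin C was higher on control 2 (7.22) than on control 1 (3.86). Meprin beta, aminopeptidase M and glutamyl aminopeptidase A were highest on OE 2 along with the intestine sum, whereas angiotensin converting enzyme was higher on control 2. Of the 6 surface enzymes described above, 3 were highest on OE 2. Dipeptidyl peptidase IV was highest on control 2 (13.3 array medians, 8.41 on OE 2) and DPEP1 on OE 1 (1.95). The 5 intestine markers were not detected on control 2, where glutamyl aminopeptidase A stood at 81.7% of its highest level. The part of other cells in these values was not tested.

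**Figure D3:**
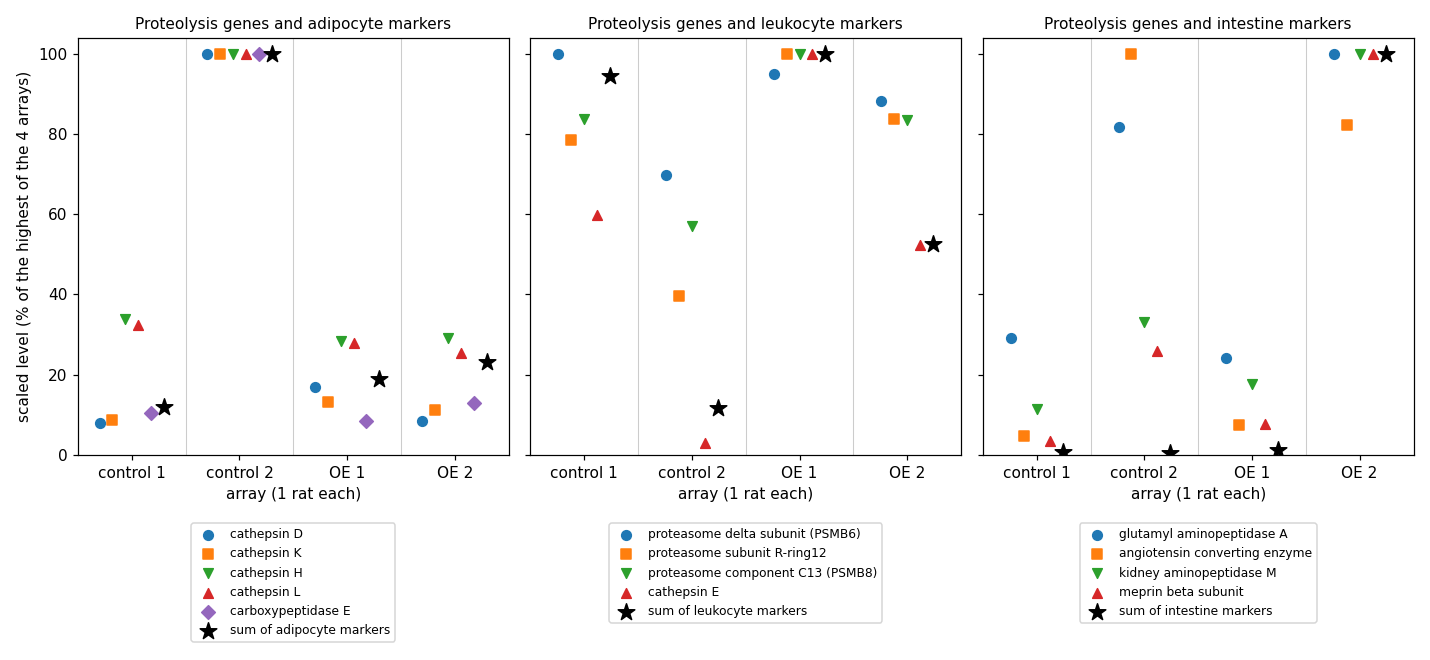
Scaled level on each array (1 rat each) as a percent of the highest of the 4 arrays, for proteolysis genes and for the summed markers of adipocytes, leukocytes and intestine (stars). Cathepsins D, K, H and L stand at 100% on control 2 with the adipocyte sum, and meprin beta and aminopeptidase M at 100% on OE 2 with the intestine sum. The genes drawn were chosen after their values were seen. PA28 alpha, cathepsins C and S, dipeptidyl peptidase IV and DPEP1 are not drawn.

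Promoter sequences are shown for members of both routes of degradation: cathepsins D and L, with ratios under 0.5, and the proteasome subunits RC7-I and C8, with ratios of 2.21 and 1.01. The 250 bases before the start site come from RefSeq (GRCr8), 5′ to 3′ on the strand of the gene. Capitals mark CACGTG, the core of the element bound by TFEB, a regulator of lysosomal genes; TGACNNNGC, the core of the antioxidant response element bound by NFE2L1, a regulator of proteasome genes; and CCAAT, the box bound by NF-Y. All were searched on both strands.
Ctsd, chr1.0:206968822.0-206969071.0, minus strand: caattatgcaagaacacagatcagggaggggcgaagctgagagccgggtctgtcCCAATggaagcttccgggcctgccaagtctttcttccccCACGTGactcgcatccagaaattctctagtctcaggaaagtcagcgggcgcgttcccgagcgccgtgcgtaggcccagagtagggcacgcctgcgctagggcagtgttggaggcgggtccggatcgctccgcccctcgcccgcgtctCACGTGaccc
Ctsl, chr17.0:769854.0-770103.0, plus strand: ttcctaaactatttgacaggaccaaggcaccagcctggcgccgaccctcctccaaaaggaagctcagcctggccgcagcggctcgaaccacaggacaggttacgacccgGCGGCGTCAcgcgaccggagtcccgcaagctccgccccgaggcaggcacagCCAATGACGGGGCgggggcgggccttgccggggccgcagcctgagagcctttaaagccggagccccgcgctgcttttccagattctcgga
Psmb2, chr5.0:144254808.0-144255057.0, plus strand: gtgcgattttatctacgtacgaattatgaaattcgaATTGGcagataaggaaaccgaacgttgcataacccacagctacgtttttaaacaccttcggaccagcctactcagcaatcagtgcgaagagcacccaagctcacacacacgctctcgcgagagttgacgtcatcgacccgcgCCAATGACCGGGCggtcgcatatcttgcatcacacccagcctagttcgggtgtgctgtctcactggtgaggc
Psma3, chr6.0:95219499.0-95219748.0, plus strand: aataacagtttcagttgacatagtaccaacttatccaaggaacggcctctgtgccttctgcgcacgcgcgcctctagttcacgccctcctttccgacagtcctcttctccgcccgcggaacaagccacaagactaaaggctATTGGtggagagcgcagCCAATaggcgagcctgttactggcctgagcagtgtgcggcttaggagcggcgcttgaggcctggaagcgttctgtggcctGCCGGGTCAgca
Counted back from the start site, Ctsd held CACGTG at −157 and −10 and CCAAT at −196. Ctsl held TGACNNNGC at −141 and −86 and CCAAT at −90, Psmb2 held TGACNNNGC at −68 and CCAAT at −214 and −72, and Psma3 held TGACNNNGC at −12 and CCAAT at −109 and −92. In Ctsl and Psmb2 a CCAAT and a TGACNNNGC overlap. Each of the windows shown holds CACGTG or TGACNNNGC, so they do not stand for the whole list. The windows of cathepsins H and K, also with ratios under 0.5, hold neither.

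A single such window was found for 34 of the 37 genes that had a symbol. CACGTG occurred in 3 of the 34 (8.82%, beside 5.59% of all 33469 windows of that length), of which 1 belonged to a cathepsin and 2 to the proteasome core. TGACNNNGC occurred in 4 of the 34 (11.8%, beside 10.1%), 3 of them of the core. CCAAT occurred in 16 of the 34 (47.1%, beside 34.0%), and in 9 of the 13 core genes with a window (69.2%). A match says only that these letters are in the window.

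Outside the 39 genes, 42 genes were listed as 26S ATPases, protease inhibitors, other proteases and further lysosomal proteins, and 32 of them passed the filter on low values. Their median ratio was 0.653, with 8 under 0.5 (25.0%, beside 18.3% of all genes tested), 0 over 1.5 (beside 18.9%) and both OE values below both controls for 7 (21.9%, beside 15.8%). The median was 1.10 against control 1 alone, with 21 of the 32 above 1. Against control 2 alone it was 0.558, with 3 above 1. Control 2 was the highest array for 21 of the 32, beside 418 of all 922 genes tested. Limma called 0 of the 32 after adjustment, and 1 had an unadjusted p under 0.05 (beside 2.06%). Among the inhibitors, calpastatin, the inhibitor of the calpains, had adjusted intensities of 15, 72, 36 and 37 and a ratio of 0.420. The tissue inhibitor of metalloproteinase TIMP-1, detected on all 4 arrays, had 327, 1029, 639 and 476 and a ratio of 0.414. Both were highest on control 2, and against control 1 alone the ratios were above 1, at 1.78 for calpastatin and 1.22 for TIMP-1. The lysosomal proteins were subunits of the vacuolar ATPase, the pump that acidifies the lysosome. The 16-kDa subunit, also detected on all 4 arrays, had 163, 116, 333 and 178 and a ratio of 1.04, and subunit F, at 3, 54, 99 and 37, had 1.07, which was 14.2 against control 1 alone and 0.556 against control 2 alone.

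The median ratio of the 39 genes moved with that of all genes when the arrays were scaled differently. Scaled to the housekeeping genes it was −0.78 on the log2 scale beside −0.91 over all genes, and with no scaling it was 0.69 beside 0.63. Scaled to the 75th percentile it was 0.05 beside −0.14, and with quantile normalization 0.08 beside −0.11, so that its sign turned under both while that of all genes did not.

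**Figure D4:**
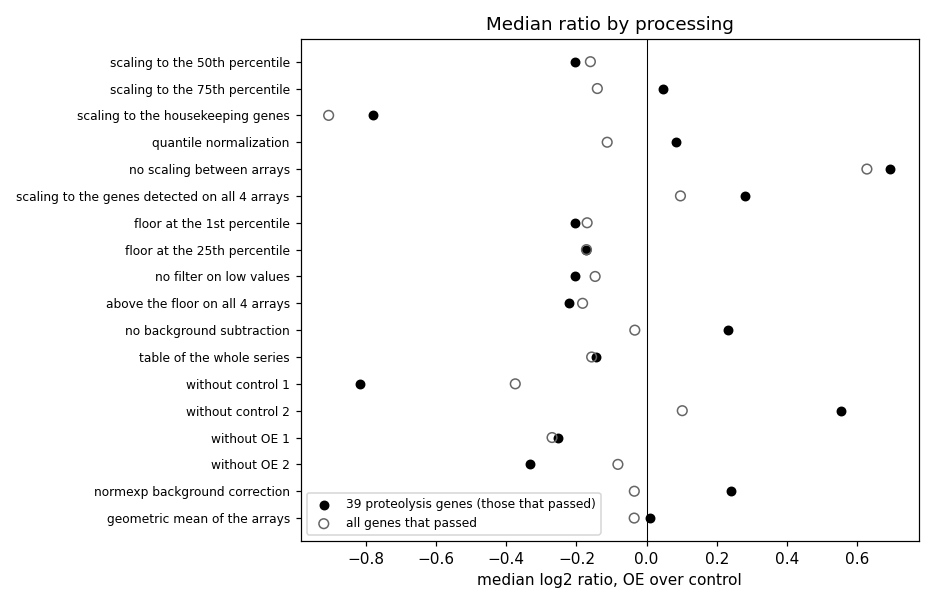
Median log2 ratio (OE over control) of the 39 proteolysis genes that passed the filter (filled circles) and of all genes that passed it (open circles) under each way of processing. The median of the 39 genes ranged from −0.82 without control 1 to 0.69 with no scaling between arrays.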

How the data were processed

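RNA of 2 control and 2 OE rats had been hybridized to nylon Atlas cDNA arrays, 1 rat per array. The authors deposited intensity values from image analysis with no scaling between arrays: spot, background and adjusted intensity, the last being spot minus background, or 0 if negative. Per the file headers, each file also held columns for another array, and these 12 columns were left aside.

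Adjusted intensities were divided by the 50th percentile of each array, and values under 0.235 array medians, the 10th percentile of all scaled values above 0, were raised to that floor. Genes above it in both rats of 1 group or more were tested, 922 of 1185. Log2 values were fitted by lmFit and eBayes of limma 3.58.1 (R 4.3.3) with group as the term, Benjamini-Hochberg adjustment over the 922 genes and a threshold of 0.05. The fit was tried on simulated data with log2 changes of 2. It recovered 100% of the changes at a noise SD of 0.1. At 0.76, the median SD within groups in these data, it recovered 38.7%. The number of arrays limits the precision. The methods name separate animals, so each array is 1 replicate. The study's variance filter was not repeated here.

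The table of the whole series served only as an alternative. In its OE 1 column, 658 of 658 values matched by the other arrays equalled the array file up to a blank line in that file. After it 35 of 275 did, and 242 equalled the value of the preceding spot.

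The genes, lists and the detection limit were chosen with earlier results of these data known. Values on all arrays were given for genes detected on at least 1 array, for those past the cutoffs whose groups did not overlap, for the spots that the rule or the study names, and for further members described by role. Same-numbered arrays did not deviate together (r = 0.0495 across 922 genes, which are not independent), so no pairing of rats by number was assumed.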

Additional observations from a re-analysis of the deposited data

How the results depend on the processing

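The count of proteolysis genes with a ratio under 0.5 was 6. It was 15 when scaled to the housekeeping genes, 2 with no scaling between arrays, 0 with no background subtraction, 0 with normexp, 13 with the table of the whole series and 3 when scaled to the genes detected on all 4 arrays, an alternative chosen after seeing the data. Of all genes tested, 18.3% had a ratio under 0.5. In the same order of alternatives the shares were 45.2%, 3.04%, 0.880%, 0.905%, 21.5% and 11.3%. The count over 1.5 was 9. It was 3 with the housekeeping genes, 24 with no scaling, 3 with no background subtraction, 3 with normexp, 14 with the series table and 4 at a cutoff of 2 in place of 1.5. Of all genes tested, 18.9% had a ratio over 1.5. For the first alternatives, in the same order, the shares were 5.14%, 50.7%, 6.68%, 7.42% and 24.3%. No share was computed for the cutoff of 2. The median log2 ratio was −0.20, beside −0.16 over all genes. It was 0.69 with no scaling, beside 0.63, and 0.01 with geometric means of the arrays, beside −0.04. Leaving out 1 array gave 0 to 14 genes under 0.5 (0 without control 2, 14 without control 1), 6 to 19 over 1.5 (19 without control 2) and medians of −0.82 to 0.56 (0.56 without control 2). Over all genes, the share under 0.5 was 12.1% without control 2 and 31.0% without control 1. The all-gene share over 1.5 was 30.1% without control 2 and 27.1% without control 1. The all-gene medians were 0.10 without control 2 and −0.37 without control 1.

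Past the cutoffs, the direction turned when scaled to the housekeeping genes for R-ring12 (0.861), DPEP1 (0.918) and R-zeta (0.986). It turned without control 1 for RC10-II (0.996) and C9 (0.942), without control 2 for cathepsin D (1.57), cathepsin K (1.41), carboxypeptidase E (1.02) and thimet oligopeptidase (1.04), and without OE 2 for aminopeptidase M (0.795) and meprin beta (0.497). Over the arrays left out in turn, the lowest and highest ratios were 0.996 and 3.87 for RC10-II, 0.942 and 5.86 for C9, 0.127 and 1.57 for cathepsin D, 0.121 and 1.41 for cathepsin K, 0.106 and 1.02 for carboxypeptidase E, 0.313 and 1.04 for thimet oligopeptidase, 0.795 and 5.13 for aminopeptidase M and 0.497 and 15.1 for meprin beta. These were the 11 turns among genes past the cutoffs. Counting genes between the cutoffs as well, 109 ratios of 34 of the 39 genes crossed 1 under some alternative, such as polyubiquitin at 1.81 and vp165 at 1.46 without control 2. The cause of these shifts was not tested.

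By limma 0 genes passed the threshold under every alternative run, with smallest adjusted p-values of 0.171 (without control 1) to 0.999 and 1 to 258 genes at an unadjusted p under 0.05. Where 1 array was left out, the lone array of its group was taken to have the spread of the other group. With the replicate number as a block the count was also 0, with 17 at an unadjusted p under 0.05, beside 19 without the block. In the series table, 32 of the 33 proteolysis genes after the blank line carried the value of the preceding spot in OE 1. With 17 of the 39 genes at less than 2 times the background on every array, their ratios rest on spots near the background, and 2 arrays per group leave standard errors of 0.57 or more on the log2 scale.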
